A study of Mus musculus with 18 samples.

Results

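The genes described here encode the presynaptic vesicle release machinery, the proteins that dock, prime, fuse and recycle synaptic vesicles at nerve terminals. They are 51 genes in 7 families, and they were read on every probe set of the array that carried 1 gene symbol and whose symbol was among the 51. This gave 125 probe sets of the 45037 on the array that are not array controls, and all 51 genes had at least 1. A further probe set lists Vamp1 together with another symbol and was not used. The 51 genes were chosen by name and family, with earlier results of these data known.

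RNA was compared between 2 groups of 9 mouse brain samples, 9 holding RNA that was immunoprecipitated with a tagged RNA-binding protein (IP) and 9 holding total RNA of the whole brain (WB). All samples came from transgenic mice (strain C57BL/6J X DBA/2J) aged 11 and 14 weeks, with no age given for single samples. The transgene is a bacterial artificial chromosome in which the orexin coding sequence was replaced by a flag-tagged rat poly(A)-binding protein and an IRES-eGFP, so the tagged protein depends on orexin gene sequences, and whole brain samples carry it too. Per the labels' protocols, formaldehyde perfusion linked RNA to protein, the tagged protein was drawn from brain lysate with anti-flag beads, and heating in elution buffer undid the links, with IP labelled as polyA RNA and WB as total RNA. The comparison asks which transcripts were over- or under-represented in RNA bound to the tagged protein relative to whole brain. The labels do not say that the 9 samples of a group came from separate animals, so the p-values speak only of the scatter among samples, which may be technical.

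In a nerve terminal, the vesicle protein synaptobrevin (the Vamp genes) pairs with the plasma membrane proteins syntaxin and SNAP-25 to form the SNARE complex that drives membrane fusion. Synaptotagmins on the vesicle sense calcium, complexins and Munc13 proteins hold or ready the SNAREs, and RIM, Bassoon and Piccolo organise the active zone where vesicles fuse. Dynamin, endophilin and synaptojanin then retrieve vesicle membrane, and orexin neurons of the hypothalamus, like other neurons, release their transmitters and peptides through such proteins.

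The arrays of the 2 groups differed beyond the members. Mean correlation with the other arrays of the same group was 0.825 to 0.869 in IP and 0.936 to 0.944 in WB. The log2 difference between the 3' and 5' control probe sets of Gapdh was 3.33 to 5.45 in IP and 1.33 to 1.78 in WB (exact permutation test, two-sided, adjusted p = 5.14e-05 over 5 array measures), while that of actin was -1.31 to 0.00 and -0.23 to 0.03 (adjusted p = 0.249). The hybridization controls stood 0.94 higher in IP on the log2 scale, and in 4 IP arrays (replicates 2, 5, 6 and 8) they read 14.5 to 15.3 against 13.7 to 13.9 in the other IP arrays. Orexin itself (Hcrt), which defines the labelled cells, read 73.8, 308 and 491 (lowest, median and highest intensity) in IP and 156, 248 and 388 in WB, and its log2 difference of 0.21 did not pass the test (limma adjusted p = 0.568). Of the markers of other cells, the summed intensity ran from 34364 to 63529 in IP against 21182 to 28803 in WB for 6 astrocyte genes, of which 3 were higher and 2 lower. It ran from 46576 to 101477 against 29647 to 42254 for 5 oligodendrocyte genes (2 higher, 2 lower) and from 3747 to 8277 against 2042 to 3663 for 6 microglial genes (1 higher, 3 lower). Neuronal markers overlapped between groups (45218 to 80891 and 43735 to 64086, 4 higher and 4 lower of 9), while 6 endothelial genes (846 to 1532 and 2023 to 2329) and 4 red blood cell genes (298 to 1282 and 5089 to 16262) summed lower in IP. The part of these measures in the results for the release machinery was not tested.

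Transcripts of the release machinery moved in both directions, and falls were more frequent than rises among their probe sets. Differences are IP minus WB on the log2(intensity + 16) scale, tested with limma over all 45037 probe sets and called at an adjusted p of 0.05. Of the 125 member probe sets 26 were higher in IP (20.8%) and 67 lower (53.6%), and 32 did not pass. Of all probe sets on the array 14.2% were higher and 30.8% lower. With a change of at least 2-fold the members had 10 higher and 55 lower, where the array had 7.72% and 21.9%. The median difference of the member probe sets was -0.70, and that of all probe sets was -0.23. In bulk RNA such as this, fewer cells of a type, less RNA per cell and less capture with the tagged protein cannot be told apart.

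Separation of the groups was frequent but not general. In 16 member probe sets all 9 IP arrays lay above all 9 WB arrays (5.22% of all probe sets), in 37 they lay below (10.3% of all probe sets), and in 72 the groups overlapped. The IP arrays scattered more, with a median SD of 0.61 over the member probe sets against 0.23 in WB, and the IP SD was the larger in 116 of 125. Replicate 8 of IP was the lowest IP array for 26 of the 125 probe sets and replicate 4 for 2. The shares called also went with the signal level, and most members were brighter than most of the array. Of the 47 members with a WB mean of 8 to 10 on the log2 scale 8.51% were higher and 55.3% lower, against 13.5% and 44.3% of all probe sets in that range. Of the 47 at 10 to 12 it was 25.5% and 55.3%, against 28.6% and 47.7%, and of the 20 at 12 or more 35% and 50%, against 50.7% and 33.1%. Below 8, where 22604 of the 45037 probe sets of the array but 11 members lay, it was 27.3% and 45.5%, against 9.55% and 17.1%. At 8 to 12, where 94 of the members lay, their shares were thus nearer to those of the array than over all levels.

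With the deposited scaling, a single value per gene gave a more even count. Read on its brightest probe set (the highest mean log2 value over all 18 arrays), 18 of the 51 genes were higher in IP, 20 were lower and 13 did not pass, where 21.7% of the 18193 genes on the array were higher and 21.7% lower. The median gene difference was -0.08, against 0.00 over all genes. Averaging the log2 values of all probe sets of a gene instead left 6 genes higher and 28 lower. It turned the rises of Rims2, Rab3a, Rab3c and Rph3a into falls past the test, and ended the calls of Syt4, Syt7, Stx1a, Vamp4, Syp, Unc13b, Pclo, Doc2b, Snap91 and Sh3gl2. Among the 38 genes with several probe sets, 15 of the brightest probe sets were higher and 14 lower, whereas 8 of the 74 dimmer ones were higher and 47 lower. That contrast is partly set by the rule, since the mean includes the IP arrays and favours probe sets raised in IP. The same holds for gene counts on brightest probe sets, those of all genes included. For the rises of Cplx1, Rims1, Rims2, Rab3c and Doc2b, another probe set of the gene had the higher WB mean.

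The scaling of the arrays sets the balance of rises and falls. With quantile normalization 22 member probe sets were higher and 63 lower (24.1% and 22% of all probe sets), with median centring 34 and 51 (28.4% and 18.5%), and with the hybridization controls as the scale 7 and 97 (2.88% and 68.4%). The median of all probe sets was 0.11, 0.20 and -1.17 under these scalings. The share of rises among the members' calls was 27.96% as deposited, 25.9% after quantile normalization, 40% after median centring and 6.73% with the hybridization controls. Over all probe sets these shares were 31.6%, 52.3%, 60.6% and 4.04%. Of the 51 member genes on their brightest probe sets, 16 rose and 22 fell with quantile normalization. Median centring gave 24 rises and 13 falls of genes, and the hybridization controls 6 and 31. Shares of all genes were not computed under these scalings. The calls of 6 rising genes (Syt7, Stx1a, Cplx1, Syn1, Rims2 and Rab3a) and 13 falling genes were the same under all 3 scalings, and the other 12 rises ended with the hybridization controls. Calls of 14 genes held under every alternative in which the gene was read: the rises of Cplx1 and Syn1 and the falls of Syt1, Syt3, Syt11, Syt12, Stxbp5, Syn2, Syngr1, Sv2a, Sv2b, Sv2c, Rims3 and Rab3b. Syt12 was too dim for the filter at a mean of 200 and was not read there. Syt3, Syt12, Syn1, Sv2a, Sv2c and Rab3b have 1 probe set each. For these genes the alternatives that change the probe set could not change the value. For Cplx1 the mean over its 3 probe sets was 0.32 and only just passed (adjusted p = 0.0498). No alternative picked the probe set of a gene without the IP arrays. The Cplx1 probe set with the highest WB mean (12.46, against 11.75 on the brightest) was lower in IP (-0.57).

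**Figure D1:**
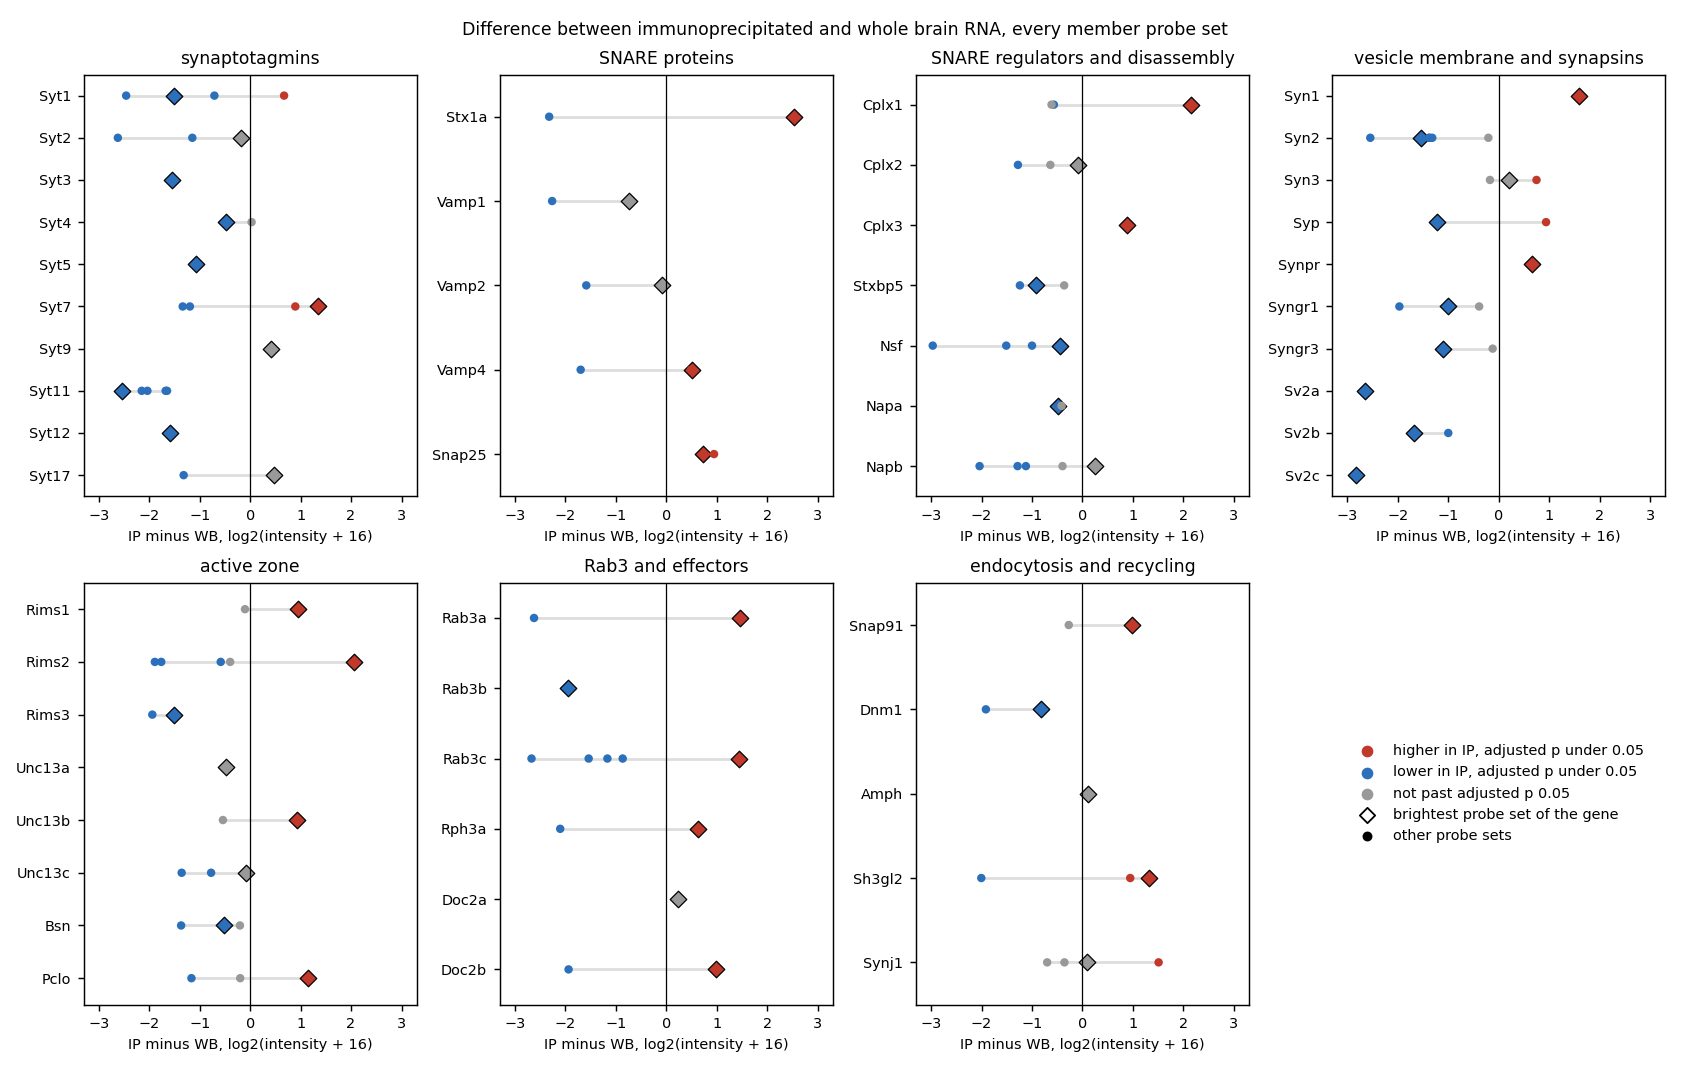
Difference between IP and WB (log2 of intensity + 16, horizontal axis) for each of the 125 member probe sets, by gene and family. Diamonds mark the brightest probe set of a gene and circles the others, red and blue mark probe sets higher and lower in IP at an adjusted p of 0.05, and grey marks those that did not pass. With the deposited scaling 26 points are red and 67 blue, and several genes carry both colours.

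Synaptotagmins, the calcium sensors and related proteins of vesicles, were mostly lower in IP: of 10 genes 6 fell, 1 rose and 3 did not pass, with 4 falls and 3 rises under median centring, 6 and 3 with quantile normalization, and 7 and 1 with the hybridization controls. Of their 24 probe sets 17 were lower and 3 higher (70.8% and 12.5%), with a median difference of -1.26. On the array 30.8% of probe sets were lower and 14.2% higher, and 21.7% of genes each way. With the hybridization controls 19 of their 24 probe sets were lower and 1 higher, where 68.4% of all probe sets were lower and 2.88% higher. The shares of the array under each scaling, given above, are shares of probe sets. Shares of all genes were not computed under the other scalings, so the family gene counts there have no like share beside them. Syt11, a synaptotagmin that does not bind calcium, read 561, 1323 and 2469.7 (lowest, median and highest intensity) in IP and 6392, 8017 and 10235 in WB. It fell by 2.53 on the log2 scale (SE 0.21, 5.79-fold, adjusted p = 7.52e-10). All 9 IP arrays lay below all WB arrays, and all 5 probe sets of the gene were lower with no overlap.

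Syt1, the main calcium sensor of fast synchronous release in forebrain neurons, read 1617, 3627 and 5424 in IP and 8222, 8887 and 10078 in WB on its brightest probe set. This was a fall of 2.85-fold (log2 difference -1.51, SE 0.18, adjusted p = 1.93e-07), again with every IP array below every WB array. A second Syt1 probe set went the other way, from 2579, 3308 and 3714 in WB to 2871, 5273 and 8147 in IP (0.67, SE 0.15, adjusted p = 0.000773), with 8 of 9 IP arrays above all WB arrays. The other 2 Syt1 probe sets were lower.

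Syt7, a slower calcium sensor with high calcium affinity, was the synaptotagmin gene that rose with the deposited scaling. Its brightest probe set read 14365, 19236 and 26811 in IP and 6140.4, 7586 and 8478 in WB, a 2.53-fold rise (log2 difference 1.34, SE 0.12, adjusted p = 2.29e-09) with no overlap. Its 4 probe sets were split, and the 2 dimmest fell, with differences of -1.34 and -1.19. The mean over the 4 was -0.07 (adjusted p = 0.634).

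Syt12, a synaptotagmin without calcium binding, was dim, at 9.23, 28.3 and 94.9 in IP and 25.1, 146 and 298 in WB. It fell by 1.59 on the log2 scale (SE 0.35, adjusted p = 0.000677), and the groups overlapped, with 3 IP arrays below all WB arrays. Syt3 fell by 1.55 with no overlap, Syt5 fell by 1.08 and Syt4 fell by 0.47, and Syt5 and Syt4 did not pass under median centring (-0.66 and -0.05) or without the 4 IP arrays with bright hybridization controls (-0.47 and -0.21). Syt2, the fast sensor of hindbrain and spinal synapses, did not pass on its brightest probe set (-0.19, adjusted p = 0.58), although its second probe set fell by 2.62. Syt9 (0.41, adjusted p = 0.331) and Syt17 (0.47, adjusted p = 0.146) did not pass either, but both were higher past the test with quantile normalization (0.83 and 0.70) and median centring (0.84 and 0.89).

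Among the SNARE proteins 3 of 5 genes rose with the deposited scaling and none fell, but quantile normalization left 1 rise and 1 fall and the hybridization controls 1 rise and 3 falls. Their 11 probe sets held 5 rises and 4 falls (45.5% and 36.4%, on the array 14.2% and 30.8%), with a median difference of -0.08. Snap25, the plasma membrane SNARE, read 41878, 52425 and 85655 in IP and 30860.4, 36688 and 40579 in WB. Its 1.67-fold rise (log2 difference 0.74, SE 0.14, adjusted p = 8.95e-05) became -0.08 with quantile normalization and -0.21 with the hybridization controls. All IP arrays lay above all WB arrays on both Snap25 probe sets, the second of which rose 1.93-fold.

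Stx1a, encoding syntaxin-1A, gave the widest opposite readings of the 38 genes with several probe sets. Its brightest probe set, of the class that can share sequence with other transcripts (_x_at), read 9077, 13119 and 27765 in IP and 1778, 2395 and 3056 in WB. It rose 5.76-fold (log2 difference 2.53, SE 0.16, adjusted p = 4.97e-12), with no overlap. The second, outside that class, read 6.35, 143 and 312 in IP and 393, 502 and 844 in WB, a fall of 2.32 on the log2 scale (SE 0.43, adjusted p = 8.36e-05), also with no overlap. The direction for Stx1a thus turns with the probe set, and the mean over both was 0.10 (adjusted p = 0.699).

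Vamp2, the main synaptobrevin of forebrain vesicles, showed no difference past the test on its brightest probe set, at 4913, 10300.0 and 11146 in IP and 6527, 9196 and 11568 in WB (-0.08, SE 0.17, adjusted p = 0.742). The groups overlapped there, 2 IP arrays lying below all WB arrays. With quantile normalization the difference was -0.95 and passed (adjusted p = 4.67e-06), and with median centring it was 0.35. Its second probe set fell 3-fold without overlap, from 3641, 4447 and 4889.5 in WB to 882, 1320.0 and 2439 in IP. Vamp1, the synaptobrevin of hindbrain and motor synapses, did not pass on its brightest probe set (-0.74, adjusted p = 0.0641), while its second fell by 2.26. Vamp1 passed with the hybridization controls (-1.68), as a mean over its probe sets (-1.50), without IP replicate 1, 4 or 7 (adjusted p = 0.0192, 0.0410 and 0.0454) and with the replicate number as a block (adjusted p = 0.0404). Vamp4, a SNARE of the endosomal and Golgi route, rose by 0.52 on the log2 scale, a difference of 0.18 that did not pass with quantile normalization and of -0.43 with the hybridization controls.

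**Figure D2:**
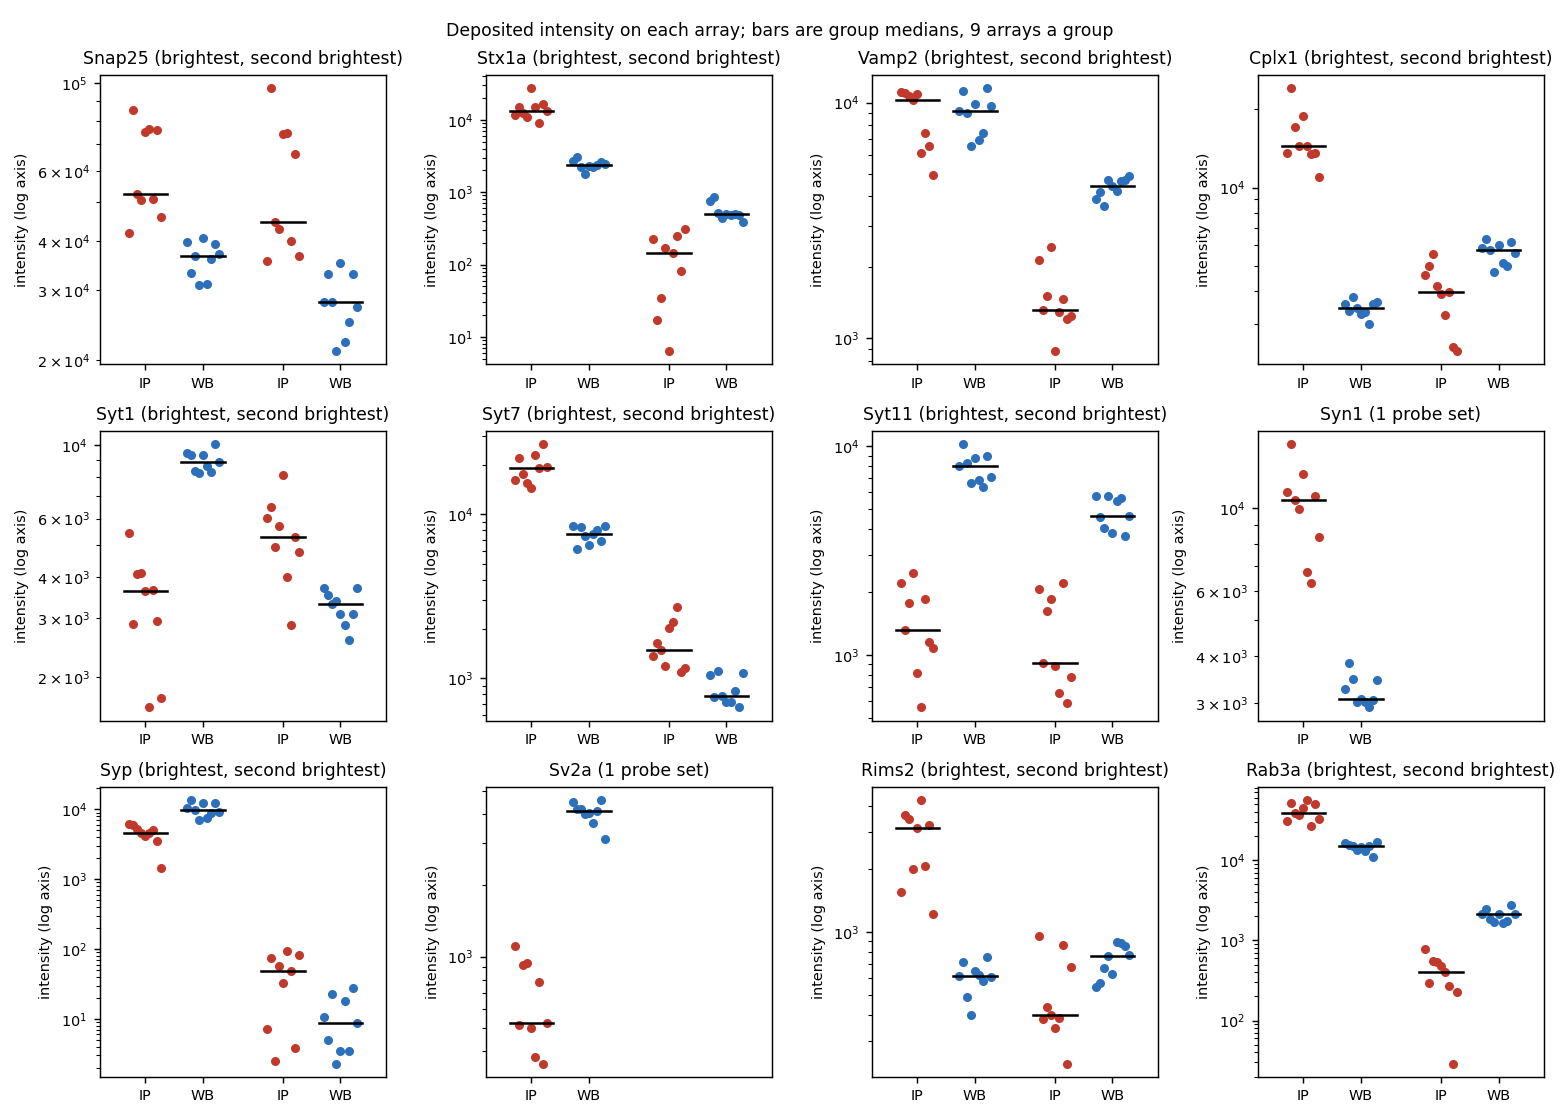
Deposited intensity on each array (vertical log axis) for 12 member genes, with the brightest probe set on the left of each panel and the second brightest on the right where there is one. Red points are the 9 IP arrays, blue points the 9 WB arrays and bars the group medians. Stx1a and Rab3a stand above WB on 1 probe set and below it on the other, and Sv2a stands below WB on all 9 IP arrays.

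Of the genes that regulate or take apart SNARE complexes, 2 of 7 rose, 3 fell and 2 did not pass, while median centring left 1 fall and the hybridization controls 1 rise and 5 falls. Their 22 probe sets held 2 rises and 12 falls (9.09% and 54.5%, on the array 14.2% and 30.8%), with a median of -0.59. Cplx1, encoding complexin-1, which clamps and then promotes fusion, read 10982, 14427 and 24152 in IP and 3000.1, 3440.0 and 3787 in WB. It rose 4.42-fold (log2 difference 2.15, SE 0.12, adjusted p = 1.14e-12), and every IP array lay above every WB array. Its second probe set was lower, at 2354, 3973 and 5563 in IP and 4755, 5774 and 6355 in WB (-0.57, SE 0.15, adjusted p = 0.00303), with 7 IP arrays below all WB arrays. The third did not pass (-0.61, adjusted p = 0.0532), and the mean over the 3 was 0.32 (adjusted p = 0.0498).

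Cplx2, its paralog complexin-2, read 725, 999 and 2737 in IP and 982, 1393 and 1573 in WB. The difference of -0.09 (SE 0.21) did not pass (adjusted p = 0.749), the groups overlapped, and the difference turned to 0.33 with median centring and 0.07 without the 4 IP arrays whose hybridization controls were bright. This probe set is of a class that can share sequence with other transcripts (_s_at). The second Cplx2 probe set did not pass (-0.64), and the third fell by 1.28 with no overlap. The mean over all 3 fell by 0.67 (adjusted p = 0.00263). Cplx3, a complexin of retinal ribbon and some brain synapses, read 186, 376 and 633 in IP and 59.1, 243 and 341 in WB. It rose 1.85-fold (adjusted p = 0.0173) with 5 IP arrays above all WB arrays, a difference of -0.06 with the hybridization controls, and it did not pass without those 4 arrays (adjusted p = 0.0828) or with array weights (adjusted p = 0.0772).

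Stxbp5, encoding tomosyn, which competes for syntaxin and SNAP-25, fell by 0.92 on the log2 scale (SE 0.15, adjusted p = 1.36e-05), from 1868, 2011 and 2448 in WB to 718, 1108 and 1656 in IP with no overlap. Nsf, the ATPase that disassembles SNARE complexes, had all 4 probe sets lower, by 0.44 on the brightest and 2.97 on the second. With median centring the brightest Nsf probe set did not pass (-0.02). Napa, encoding the adaptor alpha-SNAP, read 299.6, 572 and 977 in IP and 647, 804 and 892 in WB (-0.49, SE 0.19, adjusted p = 0.0407), with overlap, and the gene no longer passed in 11 of the 18 fits with 1 array removed, its differences running from -0.60 to -0.39. Napb, encoding beta-SNAP, did not pass on its brightest probe set (0.24, adjusted p = 0.165), and 3 of its 6 probe sets were lower.

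Vesicle membrane proteins and synapsins held more falls than rises, 7 against 2 of 10 genes with 1 not past, and 6 to 8 falls against 1 to 3 rises under the other 3 scalings. Of their 22 probe sets 13 were lower and 4 higher (59.1% and 18.2%, on the array 30.8% and 14.2%), with a median of -1.06. Syn1, encoding synapsin I, which tethers vesicles to one another and to actin, read 6301, 10516 and 14872 in IP and 2917, 3065 and 3845 in WB. It rose 3.02-fold (log2 difference 1.60, SE 0.14, adjusted p = 1.48e-09) with no overlap. Its paralog Syn2 went the other way, at 792, 1844 and 4393 in IP and 4703, 5247 and 5514 in WB, a 2.9-fold fall (-1.54, SE 0.22, adjusted p = 3.96e-06) with no overlap. Of the 6 Syn2 probe sets 5 were lower.

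The promoter windows of the members were searched for letters known from neuronal genes. Syn1 is a textbook target of the repressor REST. RefSeq windows (GRCm38.p6, 250 bases before to 50 after a gene's start) matched 39 of the 51 genes, with 51 windows. The palindrome TGACGTCA, the cAMP response element, stood in 3 of these windows (5.88%), against 1.79% of all 32851 windows, in Syn1, Sh3gl2 and Napa. CAGCACC, the left part of the RE1 element bound by REST, searched on both strands, stood in 5 member windows (9.80%) against 7.14%, in Napa, Rph3a, Sv2c, Syn1 and Unc13a. The sites of Syn1 and of Sh3gl2, which both rose, are shown with the searched letters in capitals, on the strand of the gene (minus for Syn1, plus for Sh3gl2). The first lies at chrX:20921061-20921086, the second at chrX:20921133-20921157 and the third at chr4:85205410-85205435.
Syn1, cAMP response element: aaggctgacTGACGTCActcactagc
Syn1, left part of RE1: tgtcggattCAGCACCgcggtcaga
Sh3gl2, cAMP response element: cacccgcccTGACGTCAgggtgtctc
These matches describe the letters of the windows, and Napa, which also has the first motif, was lower in IP. Among the genes with the RE1 part, Sv2c (-2.83) and Napa were lower and Unc13a did not pass. Syn1 and Rph3a were higher on their brightest probe sets. A link between the motifs and the direction of change was not tested.

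Sv2c and Sv2a, members of a glycoprotein family found on synaptic and peptide vesicles, fell most. Sv2c read 7.57, 20.7 and 82.2 in IP and 227, 273 and 368 in WB, a 7.13-fold fall (log2 difference -2.83, SE 0.31, adjusted p = 4.8e-08). Sv2a read 355, 528 and 1109 in IP and 3141, 4099.9 and 4558 in WB, a 6.31-fold fall (-2.66, SE 0.19, adjusted p = 4.23e-11). Both were separated with no overlap, as was Sv2b, which fell 3.22-fold.

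Syp, encoding the vesicle protein synaptophysin, read 1431, 4661 and 6206 in IP and 7029, 9685 and 13566 in WB. It fell by 1.22 on the log2 scale (SE 0.21, 2.33-fold, adjusted p = 3.69e-05) with no overlap. A dim second probe set of the _x_at class read 2.48, 49 and 95.3 in IP and 2.29, 8.68 and 27.8 in WB and was higher (0.94, SE 0.34, adjusted p = 0.028), with overlap. Synpr, encoding the related synaptoporin, read 4227, 7041 and 9291 in IP and 2956, 4143 and 5346 in WB. It rose 1.58-fold (adjusted p = 0.00113) with 7 IP arrays above all WB arrays, but its difference was 0.02 with quantile normalization and -0.28 with the hybridization controls. Syngr1 and Syngr3, synaptogyrins of the vesicle membrane, fell by 1.01 and 1.10, Syngr3 not passing with median centring (adjusted p = 0.0501). Syn3 did not pass on its brightest probe set (0.21, adjusted p = 0.314).

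Active zone genes were split, 4 of 8 rising, 2 falling and 2 not passing, while the hybridization controls left 1 rise and 4 falls. Their 21 probe sets held 4 rises and 10 falls (19.0% and 47.6%, on the array 14.2% and 30.8%), with a median of -0.51. Rims2, encoding the scaffold RIM2, read 1212, 3122 and 4254 in IP and 402, 612 and 754 in WB, a 4.16-fold rise (log2 difference 2.06, SE 0.21, adjusted p = 1.51e-08) with no overlap. A second Rims2 probe set was lower, at 234, 399 and 950.3 in IP and 542, 762 and 896 in WB (-0.58, SE 0.23, adjusted p = 0.0373), with overlap. Of its 5 probe sets 3 were lower, and the mean over them was -0.51 (adjusted p = 0.00613).

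Pclo, encoding the scaffold Piccolo, read 2544, 3764 and 7267 in IP and 1471, 1874 and 1978 in WB. It rose 2.22-fold (log2 difference 1.15, SE 0.17, adjusted p = 5.37e-06) with no overlap, and did not pass with the hybridization controls (0.21) or as a mean over its 3 probe sets (-0.07). Bsn, encoding the related scaffold Bassoon, read 981, 2314 and 3440.4 in IP and 2795, 2989.7 and 3474 in WB and fell by 0.51 on the log2 scale (SE 0.17, adjusted p = 0.0197), with 6 IP arrays below all WB arrays. The call for Bsn was lost with median centring (-0.09), and without the 4 IP arrays with bright hybridization controls (-0.28, adjusted p = 0.0881).

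Rims3, a short RIM without the Rab3-binding part, read 148, 355 and 644 in IP and 749.6, 817 and 1229.7 in WB, a 2.83-fold fall (-1.50, SE 0.24, adjusted p = 1.26e-05) with no overlap. Rims1 rose by 0.94 with no overlap, and its difference was 0.00 with the hybridization controls. Of the Munc13 genes, which prime vesicles, Unc13b rose by 0.92 (adjusted p = 0.00921), with -0.02 under the hybridization controls and an adjusted p of 0.0511 without the 4 IP arrays with bright hybridization controls, and Unc13a (-0.47, adjusted p = 0.0916) and Unc13c (-0.09, adjusted p = 0.757) did not pass. The other 2 Unc13c probe sets fell by 1.36 and 0.77, and the mean over its probe sets fell by 0.74 (adjusted p = 0.000222).

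Rab3 GTPases and their effectors, which link vesicles to the active zone, had 4 of 6 genes higher, 1 lower and 1 not past on the brightest probe sets, but 1 higher and 1 lower with the hybridization controls. Of all their 13 probe sets, however, 4 were higher and 8 lower (30.8% and 61.5%, on the array 14.2% and 30.8%), with a median of -1.17. Rab3a, the main Rab3 of the brain, read 26728, 38350.2 and 56149.7 in IP and 10847, 15101 and 17001 in WB on a probe set of the _x_at class. This was a 2.76-fold rise (log2 difference 1.46, SE 0.14, adjusted p = 4.5e-09) with no overlap. Its other probe set, outside that class, read 29.1, 402 and 792 in IP and 1661, 2113 and 2748 in WB, a 6.16-fold fall (-2.62, SE 0.35, adjusted p = 1.33e-06), also with no overlap. The mean over both was -0.58 (adjusted p = 0.0128).

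Rab3c was likewise divided. Its brightest probe set read 1909.8, 3314 and 4401 in IP and 568, 1281 and 1782 in WB and rose 2.71-fold (log2 difference 1.44, SE 0.23, adjusted p = 1.31e-05). The other 4 probe sets were all lower, the second reading 810.0, 995 and 1381 in IP and 2019, 2316 and 2697 in WB (-1.17, adjusted p = 2.27e-08). Neither of these 2 probe sets had overlapping groups, and the mean over all 5 was -0.96. Rab3b, on 1 probe set, read 31.5, 76.1 and 230.3 in IP and 200.02, 385 and 522 in WB and fell by 1.94 on the log2 scale (SE 0.31, adjusted p = 1.63e-05), with 8 IP arrays below all WB arrays.

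The Rab3 effector rabphilin (Rph3a) rose by 0.63 on its brightest probe set, from 1633, 2271 and 2563 in WB to 1913, 3498 and 4923 in IP (adjusted p = 0.00247). It fell by 2.10 on its second, from 963, 1304 and 1598 in WB to 104, 302 and 769 in IP (adjusted p = 3.34e-06). Doc2b, a calcium sensor of spontaneous release, rose by 0.98 on its brightest probe set (WB 217, 305 and 342, IP 389.7, 566 and 1002, adjusted p = 0.000147). Its second fell by 1.94 (WB 259, 343 and 436, IP 7.39, 115 and 203, adjusted p = 0.000133). Groups did not overlap on either Doc2b probe set, whereas the brightest of Rph3a overlapped, with 7 IP arrays above all WB arrays. Doc2a did not pass (0.24, adjusted p = 0.526).

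Of the genes for endocytosis and vesicle recycling 2 of 5 rose, 1 fell and 2 did not pass, with 1 rise and 2 falls under quantile normalization, 4 rises and no fall under median centring, and no rise and 3 falls with the hybridization controls. Their 12 probe sets held 4 rises and 3 falls (33.3% and 25%, on the array 14.2% and 30.8%), with a median of -0.09. Sh3gl2, encoding endophilin A1, read 5612, 10031 and 15091 in IP and 3789, 4131 and 4388 in WB. It rose 2.5-fold (log2 difference 1.32, SE 0.14, adjusted p = 2.13e-08) with no overlap, though not past the test with the hybridization controls (0.38). Of its other probe sets 1 rose by 0.95 and 1 fell by 2.01, neither with overlap.

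Snap91, encoding the clathrin adaptor AP180, read 8671, 12225 and 17614 in IP and 5069, 5708 and 8176 in WB. It rose 1.97-fold (log2 difference 0.98, SE 0.13, adjusted p = 1.81e-06) with no overlap, but did not pass with quantile normalization (0.10) or the hybridization controls (0.04). Dnm1, encoding dynamin-1, which cuts vesicles from the membrane, read 966, 1974 and 4060.3 in IP and 2232, 3514 and 4838 in WB. It fell by 0.82 on the log2 scale (SE 0.25, adjusted p = 0.0102), and 4 of 9 IP arrays lay within the WB range. Dnm1 did not pass with median centring (-0.39) or without the 4 IP arrays with bright hybridization controls (-0.60, adjusted p = 0.0509), and its second probe set fell by 1.91 with no overlap. Amph did not pass (0.11, adjusted p = 0.575), nor did Synj1 on its brightest probe set (0.08, adjusted p = 0.537), whose second rose 2.85-fold with no overlap.

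**Figure D3:**
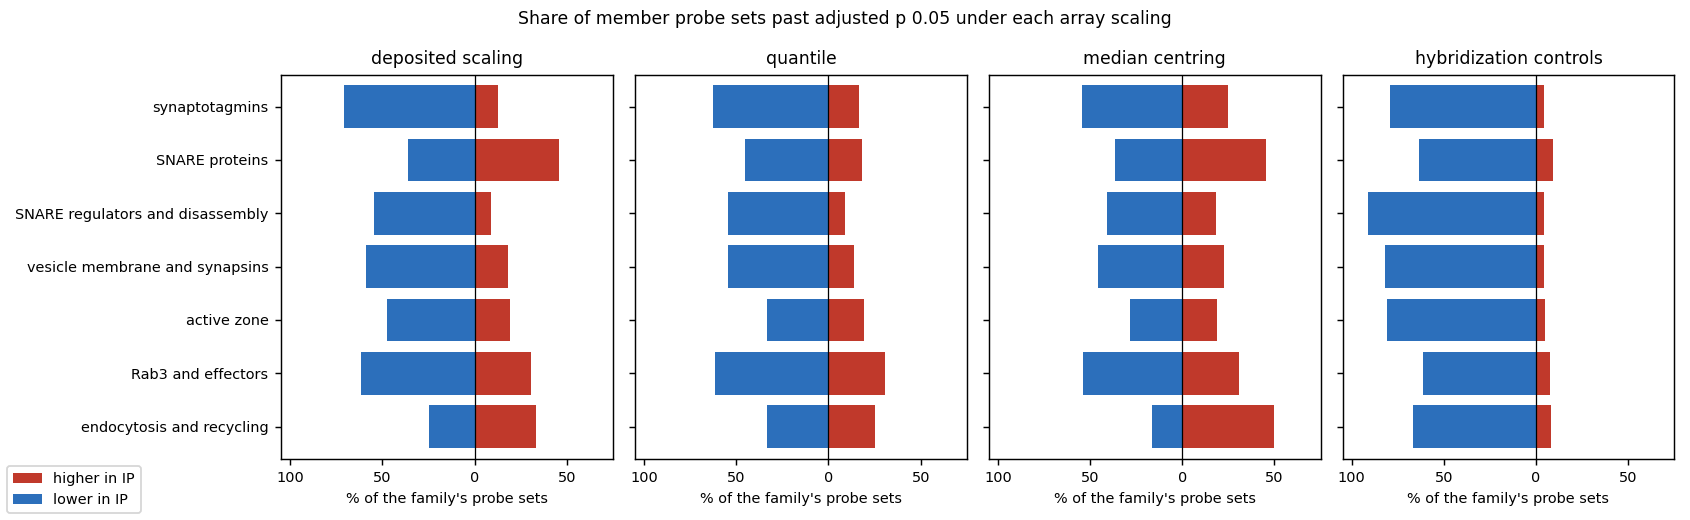
Share of each family's probe sets (horizontal axis, in percent) that were higher (red, to the right) or lower (blue, to the left) in IP at an adjusted p of 0.05, with the deposited scaling and 3 others. Over all 125 probe sets the rises and falls were 26 and 67, 22 and 63, 34 and 51, and 7 and 97 from left to right.

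Probe sets of one gene often changed unequally. Of the 38 genes with 2 or more probe sets, 13 (34.2%) had at least 1 higher and at least 1 lower, where 22% of the 9010 such genes on the array did. A further 19 had falls and no rise, 6 had rises and no fall, and the median span between the highest and lowest difference of a gene was 1.68 on the log2 scale. The brightest and second brightest probe sets were called in opposite directions for 9 genes of the 38, against 12.9% on the array: Syt1, Stx1a, Cplx1, Syp, Rims2, Rab3a, Rab3c, Rph3a and Doc2b. That of Syp rests on a probe set with a median intensity under 100 in both groups.

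The difference between the 2 brightest probe sets of a gene within an array does not depend on a single scaling factor for that array. It was compared between groups by an exact two-sided permutation test over all 48620 divisions of the 18 arrays, adjusted over the 38 genes. It differed for 30 genes, in 20 with the brightest rising more and in 10 less, and the groups did not overlap for 14 (18.4% of the 9010 genes on the array with 2 or more probe sets). The brightest was picked over both groups, which favours a probe set raised in IP, so the balance of 20 and 10 is partly set by that choice. Adjusted over those 9010 genes the test passed for 27 of the 38, where 49.4% of the 9010 passed. Leaving out 1 array at a time gave 27 to 29 genes. Without Syp, Syngr3 and Unc13b, whose second probe set had a median under 100 in both groups, 27 of 35 passed and 8 were called in opposite directions. The contrast was 4.85 for Stx1a, 4.08 for Rab3a, 2.91 for Doc2b and -2.18 for Syt1. Each had an exact permutation p of 4.11e-05, the smallest that these divisions can give (adjusted p = 0.000112). The contrast did not pass for Vamp4, Cplx2, Napa, Napb, Syn2, Syn3, Rims3 and Bsn. Where each probe set lies along its transcript was not analysed here. The part of the 3' and 5' difference seen for Gapdh in these contrasts was not tested.

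**Figure D4:**
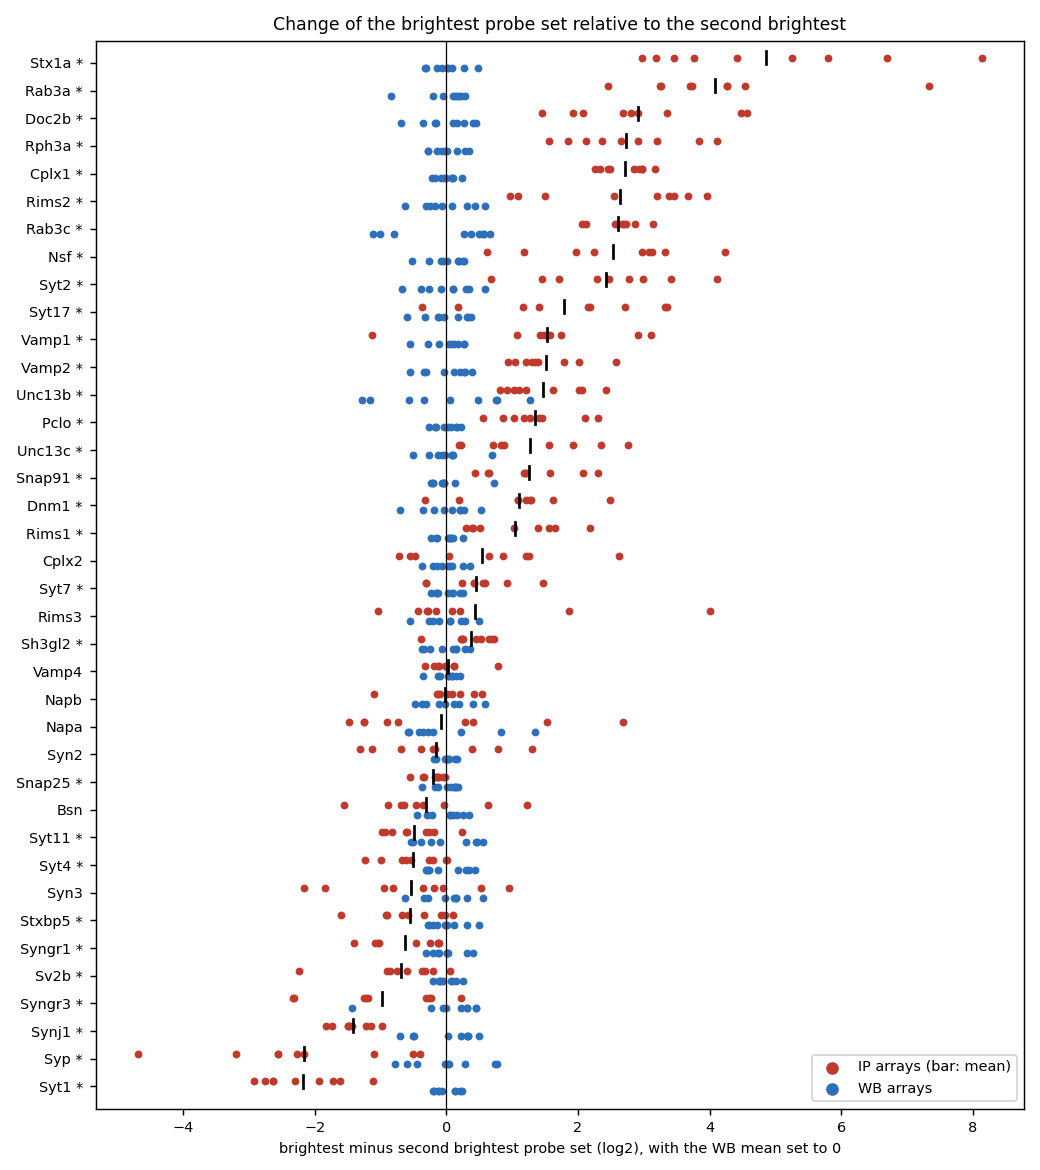
Log2 difference between the brightest and second brightest probe set of each of 38 genes on every array (horizontal axis), with the WB mean set to 0. Red points are IP arrays with a bar at their mean, blue points are WB arrays, and an asterisk marks the 30 genes past an adjusted p of 0.05 in the exact permutation test; the IP means run from 4.85 for Stx1a to -2.18 for Syt1.

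Paralogs with related roles were compared in the same way, as a difference between the changes of their brightest probe sets, over 10 pairs. The test passed for 7. Syn1 rose relative to Syn2 by 3.13 and Cplx1 relative to Cplx2 by 2.24, and Bsn fell relative to Pclo by 1.66, each without overlap. Each had the smallest p possible here (exact permutation test, p = 4.11e-05, adjusted p = 0.000137). Averaging all probe sets of a gene left 2.99 for Syn1 and Syn2, 0.99 for Cplx1 and Cplx2 and -0.62 for Bsn and Pclo, all past the test. Sv2a fell relative to Sv2b by 0.97 (adjusted p = 0.000411). Syt1 against Syt2 (-1.32, adjusted p = 0.00358), Rims1 against Rims2 (-1.11, adjusted p = 0.000754) and Napa against Napb (-0.73, adjusted p = 0.000754) also passed, but averaging all probe sets of a gene turned these 3 to 0.32, 0.94 and 0.27. The pairs Vamp1 and Vamp2 (-0.67, adjusted p = 0.0629), Unc13a and Unc13c (-0.38, adjusted p = 0.283) and Rab3a and Rab3c (0.02, adjusted p = 0.934) did not pass.

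Of 70 other genes of the release and recycling pathway that were measured, 28 were higher (40%) and 20 lower (28.6%) on their brightest probe sets. The other 22 did not pass, and the median difference was 0.16. Over all 18193 genes 21.7% were higher and 21.7% lower, with a median of 0.00. With the hybridization controls 8 of the 70 were higher and 36 lower, where 2.88% of all probe sets were higher and 68.4% lower. Those are shares of probe sets, and the shares of all genes were not computed under that scaling. The largest falls were those of Ap2s1 and Ap2b1, subunits of the clathrin adaptor AP-2, and of Bin1, encoding amphiphysin-2. Ap2s1 read 46.5, 152 and 332 in IP and 926, 1262 and 2253 in WB, an 8.52-fold fall (adjusted p = 2.99e-09). Bin1 fell 7.41-fold, and its 3 probe sets were all lower; Ap2b1 fell 6.65-fold. The largest rises were those of Itsn1, encoding the endocytic scaffold intersectin-1 (4.09-fold, adjusted p = 3.34e-09), Stxbp3, encoding Munc18-3 (3.49-fold, on an _x_at probe set), and Sh3glb1, encoding endophilin B1 (3.48-fold). Itsn1 read 1941, 3353 and 6139.9 in IP and 639, 879 and 1070.5 in WB on that probe set, while 6 of its 9 probe sets were lower and 3 higher.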

How the data were processed

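The 18 arrays were analysed as deposited, 9 IP and 9 WB, grouped by their titles. RNA (5 ng a sample) was amplified by NuGEN's WT-Ovation Pico kit and biotin-labelled, per the labels' protocols. The authors deposited linear intensity values, for which the submitters' processing notes name MAS5 without a version; the mean of each array without its lowest and highest 2% of values was 500.0. The number of arrays limits the precision.

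Here 16 was added to each intensity and log2 taken, which understates changes of dim probe sets. After leaving out 64 array controls, 45037 probe sets were tested without a filter on brightness with limma 3.58.1 (R 4.3.3, statmod 1.5.0; intensity trend, Benjamini-Hochberg). The fit was tested on simulated data with 50 changed probe sets at each size. It recovered 0 at a log2 change of 0.5, 17 at 1, 48 at 2 and 50 at 4, with 4 false calls. With so few changed probe sets the adjustment is stricter than in these data, so these shares do not carry over. Permutations used Python 3.11.15 and scipy 1.17.1. Gene names came from the platform annotation table, and all 51 symbols are current in RefSeq.

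Values by array are given for Snap25, Syt1, Stx1a, Vamp2, Syp, Syn1, Cplx1, Cplx2 and Dnm1, for up to 2 rises and 2 falls a family past the test, and for genes whose 2 brightest probe sets passed in opposite directions; 3 rises and 3 falls of other pathway genes are named. The members and lists were chosen with earlier results of these data known. Equal replicate numbers were not taken as pairs. Alternatives were pseudocounts of 1 and 64, 3 other scalings, filters at a mean of 100 and 200, no trend, array weights, a replicate block, each array left out, and other probe set rules.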

Additional observations from a re-analysis of the deposited data

Results flagged for a closer look

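In 9 of the 102 groups formed by the 51 genes' brightest probe sets and the 2 kinds of array, 1 array lay far from the other 8 of its group by Dixon's test, and chance gives about 1 in 20. Values are log2(intensity + 16), with the range of the other 8 arrays. In IP, Vamp1 read 6.88 on replicate 8 (others 8.78 to 10.72), Syp 10.50 on replicate 9 (11.78 to 12.60), Unc13c 8.05 on replicate 2 (9.33 to 10.15) and Sh3gl2 12.46 on replicate 5 (13.21 to 13.88). Without that array the IP minus WB differences were -0.43 for Vamp1, -1.02 for Syp, 0.10 for Unc13c and 1.43 for Sh3gl2. Unc13c thus changed sign, although neither of its values passed the test. In WB, Syt5 read 9.02 on replicate 1 (9.63 to 9.93), Syt9 6.55 on replicate 5 (7.43 to 8.21), Syn2 12.20 on replicate 6 (12.33 to 12.43) and Unc13b 6.17 on replicate 9 (6.99 to 7.83). Syn3 stood high on replicate 2 of WB, at 10.32 (9.71 to 10.00). The differences without these arrays were -1.16 for Syt5, 0.28 for Syt9, -1.56 for Syn2, 0.77 for Unc13b and 0.25 for Syn3.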

How the results depend on the processing

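Pseudocounts of 1 and 64 and the filter at a mean intensity of 100 changed no call of a member gene, and the array scaling and the choice of probe set changed most. Scaling on the hybridization controls left 7 member probe sets and 6 genes higher and 31 genes lower, 8 and 36 other pathway genes higher and lower, and 3 and 59 probe sets without overlap above and below. Median centring left 13 member genes and 13 other pathway genes lower and 23 probe sets without overlap below, quantile normalization 10 above, and the mean over probe sets 6 genes higher. By family, quantile normalization gave 3 rises of synaptotagmins, 1 rise and 1 fall of SNARE proteins, 1 rise of vesicle genes, and 1 rise and 2 falls of recycling genes. Median centring gave 3 rises of synaptotagmins, 1 fall each of SNARE regulators and active zone genes, and 4 rises and 0 falls of recycling genes. The hybridization controls gave 1 rise each of SNARE proteins, SNARE regulators, vesicle, active zone and Rab3 genes and 0 of recycling genes, with 3 falls of SNARE proteins, 5 of regulators, 4 of active zone genes and 3 of recycling genes. Values of single genes turned as follows, and the cause was not tested. With quantile normalization Syt2 read 0.12, Snap25 -0.082, Napb -0.31, Unc13c 0.12 and Synj1 -0.78. With median centring Syt2 read 0.23, Vamp2 0.35, Cplx2 0.33 and Unc13c 0.33. With the hybridization controls Syt9 read -0.53, Syt17 -0.47, Vamp4 -0.43, Snap25 -0.21, Cplx3 -0.058, Napb -0.70, Syn3 -0.74, Synpr -0.28, Unc13b -0.019, Rph3a -0.31, Doc2a -0.70, Amph -0.83 and Synj1 -0.86. As a mean over probe sets Syt7 read -0.074, Syt17 -0.42, Vamp4 -0.23, Napb -0.72, Rims2 -0.51, Pclo -0.069, Rab3a -0.58, Rab3c -0.96, Rph3a -0.74 and Doc2b -0.48. Outside the _s_at and _x_at classes Stx1a read -2.32 and Rab3a -2.62. With array weights Vamp2 read 0.0024. Without the 4 IP arrays with bright hybridization controls, an alternative chosen after seeing the data, Cplx2 read 0.068, Unc13c 0.012 and Synj1 -0.025, and the member probe sets were 24 higher and 62 lower. Family and overlap counts under the 3 scalings, the adjustment of the contrasts within genes over all such genes, and their count without dim pairs were also added after seeing the data.

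Of the contrasts within genes, quantile normalization turned Syt7 to -0.63 and Vamp4 to -0.25, and leaving out the same 4 arrays turned Vamp4 to -0.11 and Bsn to 0.15. Of the paralog contrasts, quantile normalization turned Vamp1 and Vamp2 to 0.38, Rab3a and Rab3c to -0.97 and Napa and Napb to 0.055, and leaving out the 4 arrays turned Rab3a and Rab3c to -0.36. The mean over probe sets turned Syt1 and Syt2 to 0.32, Rims1 and Rims2 to 0.94, Napa and Napb to 0.27, and Unc13a and Unc13c to 0.27. Leaving out 1 array at a time gave 24 to 26 member probe sets higher and 65 to 70 lower. The contrasts within genes then passed for 27 to 29 genes. The gene values ran from -0.29 to 0.0026 for Syt2, from -0.13 to 0.021 for Vamp2 and from -0.16 to 0.10 for Unc13c. The call of Napa was lost without any one of IP replicates 3, 7, 8 and 9 and WB replicates 1, 2, 3, 6, 7, 8 and 9. Contrasts within genes ran from -0.43 to 0.094 for Napa, -0.092 to 0.11 for Napb, -0.069 to 0.069 for Vamp4 and -0.010 to 0.62 for Rims3, and the contrast of Rab3a and Rab3c from -0.068 to 0.15. The replicate numbers did not pair the samples, with correlations of deviations from -0.05 to 0.08 and 2 of 9 IP arrays closest to their own number; the replicate block gave 26 member probe sets higher and 67 lower, 18 and 20 genes, 29 other pathway genes higher and 20 lower, 29 contrasts within genes and 7 of paralogs, and changed the calls of Vamp1 (adjusted p = 0.0404) and Napa (adjusted p = 0.0549). Signal over background limits Sv2c, Syt12, Rab3b and the second probe sets of Stx1a and Doc2b, which were dim in IP, and the second probe set of Syp, dim in both groups.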
